A study of Mus musculus with 8 samples.

Results

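The cornified envelope is the crosslinked protein shell that replaces the plasma membrane of dying squamous cells. Its precursors (involucrin, loricrin, the small proline-rich or Sprr proteins and the late cornified envelope or Lce proteins) are joined by transglutaminases, while proteases process filaggrin and release the outermost cells. The corneal epithelium is stratified but does not normally cornify. Raised envelope genes are a known feature of squamous metaplasia at a dry ocular surface.

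The genes described here are the rows of the deposited mRNA table whose symbols start with Sprr or Lce and a digit, together with named envelope, filaggrin-type, transglutaminase and protease genes. The rule found 32 of 23597 genes. They are 10 Sprr genes, 6 Lce genes and 16 of the 20 genes listed by name (Flg2, Hrnr and Klk5 are not analysed here, and Loricrin is listed in the table as Lor). Of the 32, 20 lie in the epidermal differentiation complex on chromosome 3, between positions 92080271 and 93399442 of the mm10 build (RefSeq coordinates, as for all below), and 12 lie elsewhere. The choice of genes used no measured value of this study, but it was made with earlier results of these data known.

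RNA came from corneas of mice in which dry eye was induced by injections of scopolamine, a muscarinic antagonist, taken on day 14. All 8 samples carry this treatment. Mice of 4 samples (ICI) had in addition been given ICI 118551, a blocker of the β2-adrenergic receptor, and those of the other 4 (Scop) had not. Each sample pooled 4 corneas. The labels give neither the strain, sex or age of the mice nor a link between mice and pools, and the p-values therefore measure the spread of these samples alone, part of which may be technical. No cornea without dry eye was among the samples, and every difference below is ICI against Scop.

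Values are FPKM, fragments scaled by gene length and by library depth. Whole fragments could be recovered from the steps of these values, and the 8 libraries held 34354346 to 39885822 of them. Of 9 corneal epithelial markers all were expressed, with summed levels of 37537 to 39831 FPKM in ICI and 37197 to 42214 in Scop. Markers of lid epidermis summed to 25.3 to 28.2 FPKM in ICI and 23.3 to 33.6 in Scop, mostly Krt78. Its keratins Krt1 and Krt10 were at 1.71 to 2.68 and 0.435 to 0.788 FPKM, and Krt2 and Krt77 at or below 0.0526 and 0.217. Scop replicate 3 stood apart. In it 9 of 10 keratocyte and stromal markers and 6 of 6 corneal endothelial markers were at their lowest of the 8 libraries, and 6 of 8 conjunctival markers at their highest. The stromal markers summed to 692 FPKM there, against 1748 to 2353 in ICI and 1748 to 2074 in the other Scop libraries. Corneal endothelial markers summed to 79.0 FPKM in Scop replicate 3 and 96.2 to 157 in the other Scop libraries. ICI replicate 1 differed too, with an endothelial sum of 214 FPKM against 100, 104 and 102 in ICI replicates 2 to 4. In bulk corneas, fewer cells of a type and less RNA per cell cannot be told apart. The main counts and many single-gene results below are therefore given with and without Scop replicate 3. The others are given for all 8 libraries only and may depend on it.

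Promoters are shown for genes on which the results turn: the envelope precursor genes Sprr1a, Ivl and Cnfn, the most abundant protease gene Asprv1, and Lce3a, the most abundant Lce gene. Each runs from 250 bases before to 50 bases after the RefSeq start (build GRCm38.p6), 5′ to 3′ on the gene's strand. Capitals mark matches, on either strand, to TGANTCA (the element of AP-1), AACNGGTT (grainyhead-like), TTGCNNAA (C/EBP), CCACCC (Krueppel-like) and TATAAA (the TATA box). No capitals overlap between motifs in these 5 sequences.
Sprr1a, chr3:92485832-92486131, minus strand: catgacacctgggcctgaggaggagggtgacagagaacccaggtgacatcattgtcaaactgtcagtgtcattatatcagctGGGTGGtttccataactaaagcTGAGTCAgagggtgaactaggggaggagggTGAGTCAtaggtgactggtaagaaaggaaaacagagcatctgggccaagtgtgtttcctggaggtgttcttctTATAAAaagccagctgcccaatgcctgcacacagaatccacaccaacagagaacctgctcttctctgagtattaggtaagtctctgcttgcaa
Ivl, chr3:92573686-92573985, minus strand: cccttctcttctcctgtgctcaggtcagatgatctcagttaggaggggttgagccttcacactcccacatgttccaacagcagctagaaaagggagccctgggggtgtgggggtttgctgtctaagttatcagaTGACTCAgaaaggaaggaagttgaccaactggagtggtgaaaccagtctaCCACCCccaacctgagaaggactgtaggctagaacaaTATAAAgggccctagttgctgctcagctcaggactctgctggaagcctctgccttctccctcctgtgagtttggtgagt
Cnfn, chr7:25369675-25369974, minus strand: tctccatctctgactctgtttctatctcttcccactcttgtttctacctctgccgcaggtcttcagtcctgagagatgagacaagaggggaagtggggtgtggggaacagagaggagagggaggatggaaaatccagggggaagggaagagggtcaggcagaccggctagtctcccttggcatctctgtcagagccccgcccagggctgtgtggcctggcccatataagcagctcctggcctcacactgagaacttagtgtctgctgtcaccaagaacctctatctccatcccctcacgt
Asprv1, chr6:86627924-86628223, plus strand: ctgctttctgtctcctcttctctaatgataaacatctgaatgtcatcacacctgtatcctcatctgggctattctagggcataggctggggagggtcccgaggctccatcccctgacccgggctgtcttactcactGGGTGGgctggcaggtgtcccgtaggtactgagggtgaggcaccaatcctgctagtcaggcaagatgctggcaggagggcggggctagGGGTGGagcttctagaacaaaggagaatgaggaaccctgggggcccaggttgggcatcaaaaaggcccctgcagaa
Lce3a, chr3:92926181-92926480, minus strand: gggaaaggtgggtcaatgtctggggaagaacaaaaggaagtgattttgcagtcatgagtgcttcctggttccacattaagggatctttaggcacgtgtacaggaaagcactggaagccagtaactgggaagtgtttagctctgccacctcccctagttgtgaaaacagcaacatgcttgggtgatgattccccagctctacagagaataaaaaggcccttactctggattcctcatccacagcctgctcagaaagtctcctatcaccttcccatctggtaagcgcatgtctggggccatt

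AP-1 factors are Fos and Jun dimers with long-known roles in keratinocyte differentiation. Of 31 genes with a listed promoter (the first listed where there are several), 13 held TGANTCA, against 7.81% of 32851 mouse promoters of the same length. In the Sprr family 6 of 10 did, and Sprr1a held the element at 146 and again at 116 bases before its start. Ivl held it once, 116 bases before its start. Dmkn, Sbsn and Krtdap, neighbours on chromosome 7, had it in 3 of 3 promoters, and the Lce genes in 0 of 6. TATAAA was in 15 of 31, against 13.6% of all promoters, C/EBP letters in 5 (10.8%), CCACCC in 12 (31.5%) and grainyhead-like letters in 2 (2.09%). Both strands were counted, and the TATAAA matches of Lce3e and Lce6a lay only on the opposite strand, 243 and 218 bases before the start. Cnfn and Lce3a held none of the 5 motifs in this window. Sprr2 copies resemble each other in sequence and are not independent cases. These are matches of letters, not measured binding.

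Expression of the 32 genes was very unequal. Asprv1, which encodes the retroviral-like aspartic protease that cleaves profilaggrin, was at 2616 FPKM on average, rank 14 of all genes in the table, and made up 86.4% to 90.5% of the summed FPKM of the 32 genes in each library. Evpl, the gene of envoplakin, a plakin that forms the first scaffold of the envelope, followed at 192 FPKM. Lce3a (27.5), Cnfn (24.0), Sprr1a (20.8), Tgm1 (16.9) and Tgm5 (14.4) formed a middle range, and Casp14 (4.42) and Ivl (4.31) were lower. The ranges over libraries of Lce3a, Cnfn and Sprr1a overlapped, as did those of Tgm1 and Tgm5 and those of Casp14 and Ivl, so the order within these groups is not fixed. Sbsn (1.10), Dmkn (1.03), Lce3b (0.788), Lce3c (0.579) and Lce3f (0.516) were near the limit of 0.5 FPKM set for testing. The remaining 18 genes fell below it.

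**Figure D1:**
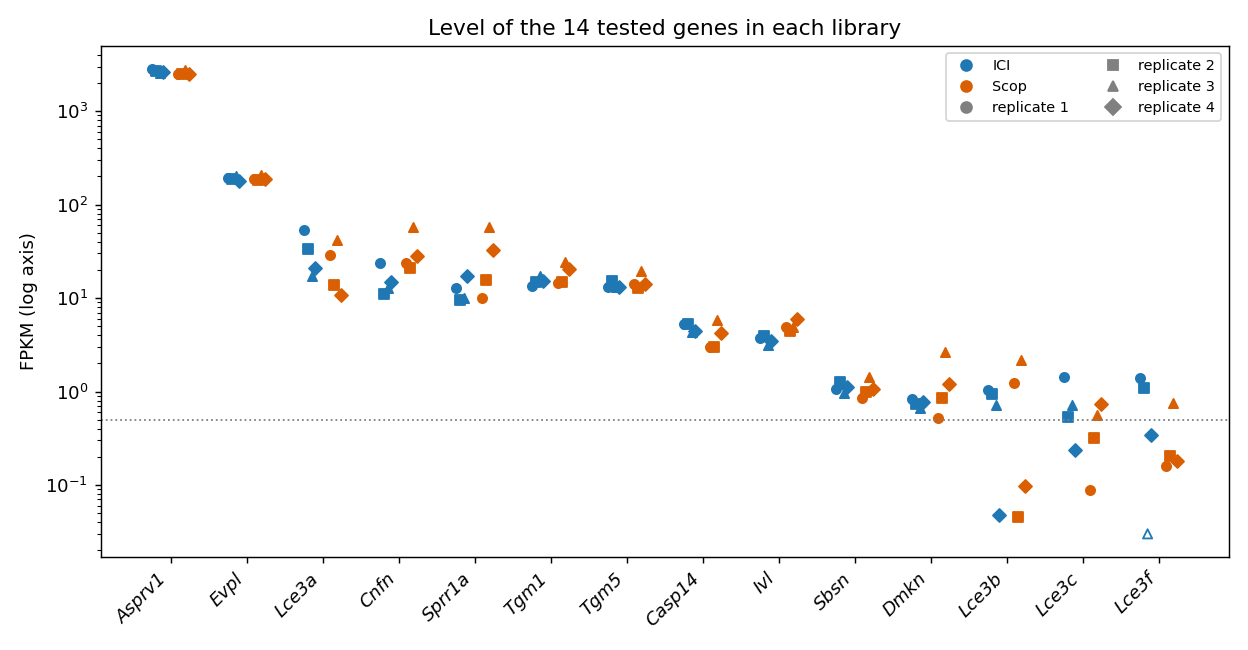
FPKM (log axis) of the 14 tested genes in each library, ordered by mean level, with ICI in blue, Scop in orange and symbols for replicate numbers. The open symbol stands for the 1 value of 0 (Lce3f in ICI replicate 3), drawn at the lower edge, and the dotted line is the limit of 0.5 FPKM. Asprv1 lies between 2487 and 2815 FPKM in the 8 libraries, and Sprr1a and Cnfn reach their highest values in Scop replicate 3.

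Transcripts of the main proteins of the cornified layer of skin were nearly absent. Loricrin (Lor), the bulk protein of the epidermal envelope, gave 8 fragments over all 8 libraries and at most 0.0284 FPKM. Filaggrin (Flg), which bundles keratin filaments, gave 10 fragments, and repetin (Rptn), a related S100-fused envelope protein, 12. The proteases Klk7 and Klk14, which cut corneodesmosomes in skin, gave 19 and 24 fragments, (Klk14 shares exonic bases with an antisense gene), and the transglutaminase Tgm3 gave 49, the highest total among the 18 genes. Together the 18 untested genes had 277 fragments, and 8 of them had at most 9, so counting error is large. Fitted with no filter, 1 of the 18, Lce3e, reached an unadjusted p under 0.05 (0.0448, log2 fold change 0.28, limma's adjusted p = 0.569). Of all 22776 genes then fitted, 1092 were lower and 862 higher in ICI at that threshold. A count of 0 fragments in a library allows up to 3 by counting error alone.

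Of these 18 genes, 9 exceeded 0.1 FPKM in some library. Krtdap, which encodes a small peptide secreted by differentiating keratinocytes, was at 0, 0.219, 0.0550 and 0 FPKM in ICI replicates 1 to 4 and at 0, 0.220, 1.82 and 0.360 in Scop replicates 1 to 4. Of its 44 fragments, 29 came from Scop replicate 3. Sprr2f, Sprr2e and Sprr2d peaked in the same library, at 1.18, 0.358 and 0.211 FPKM, as did Sprr1b at 0.169. The 6 Sprr2 genes gave 1, 4, 0 and 12 fragments in ICI replicates 1 to 4 and 8, 1, 43 and 12 in Scop replicates 1 to 4. Sprr2a3 reached 0.156 FPKM, in ICI replicate 4, Klk7 0.158, in Scop replicate 2, and Sprr4 0.125, in Scop replicate 3. Lce3e reached 0.502 FPKM in ICI replicate 3. The FPKM steps imply gene lengths of 305 bases for Lce3e, 856 for Sprr2a3 and 2422 for Klk14, against 607, 2883 and 1271 bases of exons in GENCODE M21. They imply 891 bases for Sprr2a1, 464 for Krtdap and 13746 for Flg, against 3003, 679 and 18829. The levels or the fragment numbers of these genes are therefore uncertain. How reads shared by near-identical Sprr2 or Lce3 copies were counted is not given in the sources used here, so the split among copies is uncertain.

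The comparison of ICI with Scop asks whether blocking the β2-adrenergic receptor goes with another level of these genes in the dry eye cornea. No gene of the 14 tested passed. Limma counted 0 of 14 at an adjusted p under 0.05, over all 12100 genes tested, where the share called was 0%, and limma-voom on the recovered fragments also counted 0. At an unadjusted p under 0.05, 2 of 14 were lower in ICI (Cnfn and Ivl; 7.46% of all genes tested) and 0 higher (4.56%). The median log2 fold change of the 14 was -0.03, beside -0.02 for all genes tested, and 8 of 14 were negative. Without Scop replicate 3 the median was 0.03, beside -0.03 for all genes then tested. Because 1 was added before the logarithm, log2 fold changes of low genes are understated.

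**Figure D2:**
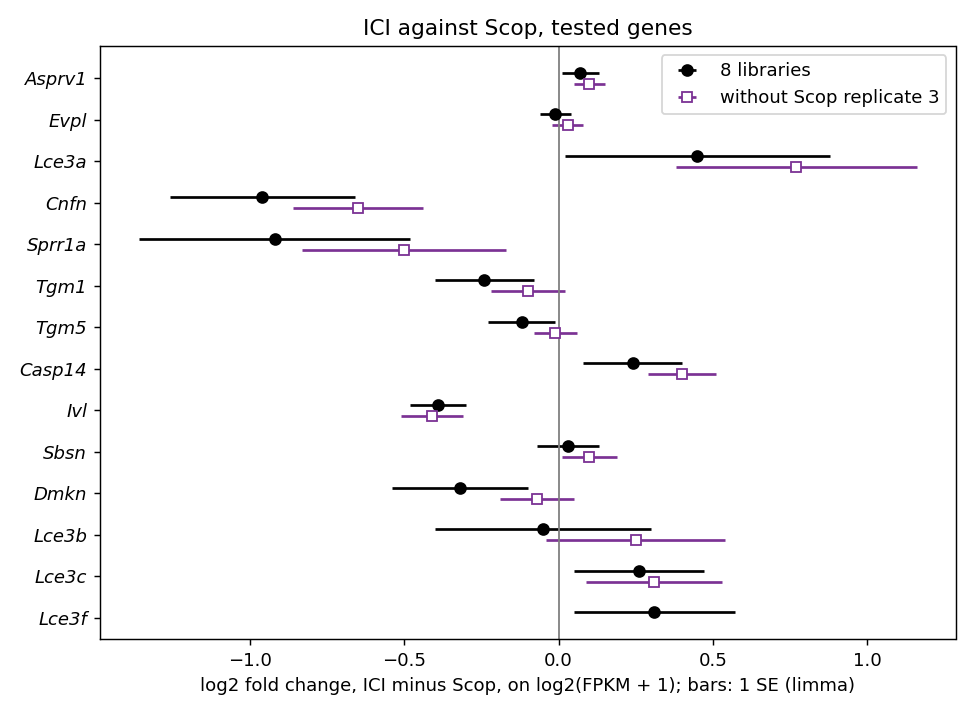
Log2 fold change of ICI minus Scop (horizontal axis, on log2(FPKM + 1)) of the 14 tested genes, with bars of 1 limma standard error, for all 8 libraries (filled) and without Scop replicate 3 (open). Cnfn and Sprr1a lie lowest in both fits, at -0.96 and -0.92 and at -0.65 and -0.50. Lce3f has no open symbol because its mean fell under 0.5 FPKM.

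Among envelope precursors, Ivl had the smallest p. Involucrin is an early glutamine-rich envelope protein that transglutaminases attach beneath the membrane. Ivl (chromosome 3, 92570899 to 92573790) was at 3.72, 3.97, 3.16 and 3.47 FPKM in ICI replicates 1 to 4 and at 4.85, 4.45, 4.86 and 5.97 in Scop replicates 1 to 4. All 4 ICI values lay below all 4 Scop values, and Ivl was the 1 tested gene of 14 without overlap in that direction, where 4.36% of all genes tested had none. In the other direction 0 of 14 had none (2.63%). The means were 3.58 ± 0.345 against 5.03 ± 0.650 FPKM (± SD, n = 4 per group, here and for later means). The log2 fold change was -0.39 (SE 0.09, unadjusted p = 0.00144, limma's adjusted p = 0.181). Its values rested on 260 to 449 fragments per library. Without Scop replicate 3 the fold change was -0.41 (SE 0.10), close to that with it, and Ivl was again the 1 gene, of 13 then tested, that lay lower without overlap (9.62% of all).

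Cnfn encodes cornifelin, a minor envelope protein (chromosome 7, 25367616 to 25369724). It was at 23.6, 11.0, 12.9 and 14.8 FPKM in ICI replicates 1 to 4 and at 24.0, 20.8, 57.0 and 28.0 in Scop replicates 1 to 4. ICI replicate 1 lay within the Scop values, and Scop replicate 3 lay above all others. The means were 15.6 ± 5.59 against 32.4 ± 16.6 FPKM, with a log2 fold change of -0.96 (SE 0.30, unadjusted p = 0.00983, limma's adjusted p = 0.291). Without Scop replicate 3 the Scop mean was 24.2 ± 3.57 FPKM and the fold change -0.65 (SE 0.21, unadjusted p = 0.0111, limma's adjusted p = 0.222). The lower ICI values of Cnfn therefore did not rest on that library alone, though it moved their size.

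Sprr1a, an envelope precursor gene that is induced in stressed and wounded squamous epithelia, carried 96.9% to 99.6% of all Sprr fragments in each library (chromosome 3, 92483954 to 92485881). Its levels were 12.7, 9.59, 9.90 and 17.4 FPKM in ICI replicates 1 to 4 and 10.0, 15.7, 58.2 and 32.9 in Scop replicates 1 to 4. Scop replicates 3 and 4 were above every ICI library, while Scop replicates 1 and 2 lay among them. The log2 fold change was -0.92 (SE 0.44, unadjusted p = 0.0646, limma's adjusted p = 0.443), and -0.50 (SE 0.33) without Scop replicate 3. Without Scop replicate 1 it was -1.30 (limma's unadjusted p = 0.00649, adjusted p = 0.263). Evpl (chromosome 11, 116220559 to 116238165) was even over the libraries, at 195, 187, 202 and 181 FPKM in ICI and 190, 184, 208 and 189 in Scop replicates 1 to 4. Its log2 fold change was -0.01 (SE 0.05) on 45911 to 53523 fragments per library.

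The expressed Lce genes were all of the Lce3 group, which lies within chromosome 3, 92925287 to 92993426. In human skin the LCE3 genes are known for induction after barrier injury. Lce3a carried 91.1% to 96.6% of Lce fragments in each library. It was at 53.4, 33.3, 17.4 and 21.2 FPKM in ICI replicates 1 to 4 and at 28.9, 13.7, 41.5 and 10.7 in Scop replicates 1 to 4. The highest library was an ICI and the lowest a Scop library, but the groups overlapped over most of their range, and the highest value was 4.97 times the lowest. The log2 fold change was 0.45 (SE 0.43, unadjusted p = 0.324, limma's adjusted p = 0.706). With single libraries left out it ran from 0.15 (without ICI replicate 1, and without Scop replicate 4) to 0.77 (without Scop replicate 3), by way of 0.26 without Scop replicate 2 and 0.68 without ICI replicate 3, so its size rested on single libraries of both groups.

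Lce3b varied more. It was at 1.04, 0.944, 0.723 and 0.0472 FPKM in ICI replicates 1 to 4 and at 1.24, 0.0452, 2.17 and 0.0987 in Scop replicates 1 to 4, from 23, 21, 16 and 1 fragments and from 28, 1, 42 and 2. Its 3 lowest libraries stood apart from the other 5 within both groups. ICI replicates 1 and 2 and Scop replicates 1 and 3 were the 4 highest libraries for both Lce3a and Lce3b. Lce3c was at 1.44, 0.536, 0.719 and 0.235 FPKM in ICI and 0.0883, 0.315, 0.564 and 0.736 in Scop replicates 1 to 4, with Scop replicate 1 lowest. Lce3f was at 1.39, 1.10, 0 and 0.342 FPKM in ICI and 0.161, 0.205, 0.748 and 0.179 in Scop replicates 1 to 4, where the 0 allows up to 0.123 FPKM by counting error. The log2 fold changes were -0.05 (SE 0.35) for Lce3b, 0.26 (SE 0.21) for Lce3c and 0.31 (SE 0.26) for Lce3f, with limma's unadjusted p between 0.240 and 0.897. The sign of Lce3b turned without Scop replicate 3 (0.25, SE 0.29).

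**Figure D3:**
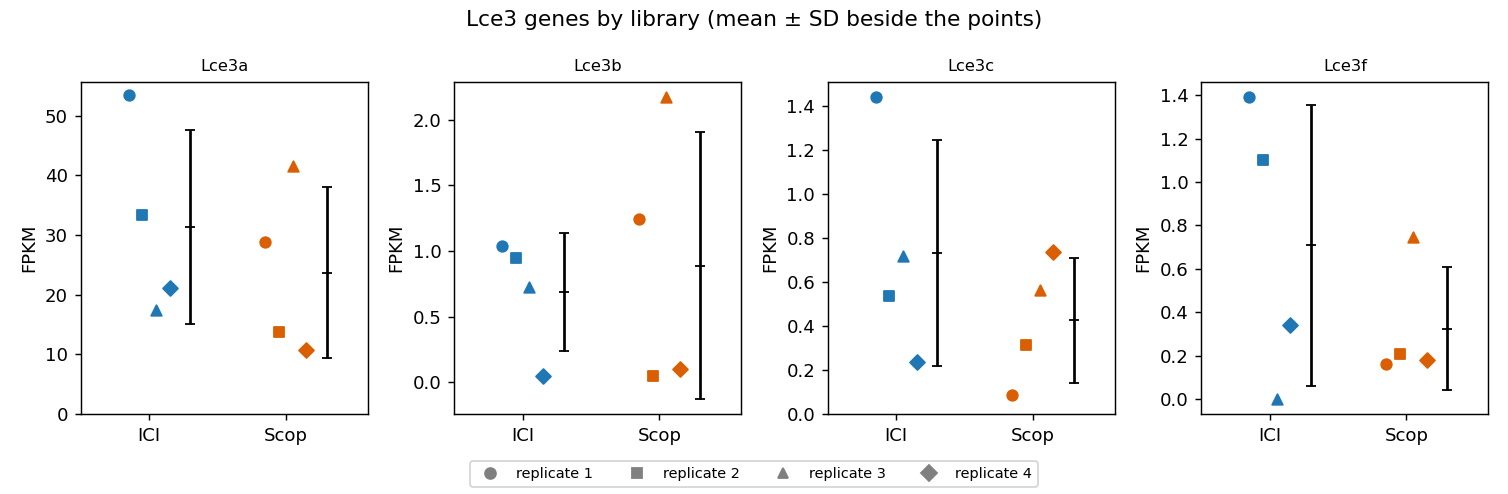
FPKM of the 4 tested Lce3 genes in each library (symbols for replicate numbers), with mean ± SD of each group (n = 4) beside the points. The groups overlap in all 4 panels, and Lce3b falls to 0.0472, 0.0452 and 0.0987 FPKM in ICI replicate 4, Scop replicate 2 and Scop replicate 4.

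Transglutaminases form the isopeptide bonds of the envelope. Tgm1, the membrane-anchored enzyme of keratinocytes (chromosome 14, 55700009 to 55713921), was at 13.5, 14.9, 17.4 and 15.3 FPKM in ICI replicates 1 to 4 and at 14.5, 14.7, 24.6 and 20.6 in Scop replicates 1 to 4. Tgm5, an enzyme of the upper epidermal layers (chromosome 2, 121046111 to 121085841), was at 13.0, 15.4, 13.2 and 13.3 FPKM in ICI and 14.3, 12.9, 19.3 and 14.1 in Scop replicates 1 to 4. Both were highest in Scop replicate 3 and otherwise overlapped between the groups, apart from Tgm1 in Scop replicate 4. The log2 fold changes were -0.24 (SE 0.16) for Tgm1 and -0.12 (SE 0.11) for Tgm5, and -0.10 (SE 0.12) and -0.01 (SE 0.07) without Scop replicate 3. An antisense gene overlaps exons of Tgm1 in GENCODE M21, and whether the counting used strand is not given in the sources used here.

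Of the processing proteases, 2 could be tested. Asprv1 (chromosome 6, 86628174 to 86629710) was at 2815, 2705, 2573 and 2619 FPKM in ICI replicates 1 to 4 and at 2487, 2496, 2745 and 2489 in Scop replicates 1 to 4. Scop replicates 1, 2 and 4 lay close together and below all ICI libraries, while Scop replicate 3 lay among the ICI values. Casp14, the caspase of cornifying keratinocytes that completes filaggrin breakdown (chromosome 10, 78711995 to 78718347), was at 5.25, 5.22, 4.36 and 4.44 FPKM in ICI and 3.02, 3.01, 5.81 and 4.28 in Scop replicates 1 to 4. Here too Scop replicates 1, 2 and 4 lay below all ICI libraries, and Scop replicate 3 was the highest of the 8. The log2 fold changes were 0.07 (SE 0.06, unadjusted p = 0.243) for Asprv1 and 0.24 (SE 0.16, unadjusted p = 0.158) for Casp14 in limma.

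Without Scop replicate 3, neither protease gene overlapped between the groups, ICI being higher, as 2 of the 13 genes then tested (3.97% of the 12137 genes then tested). Casp14 then had 0.40 (SE 0.11, unadjusted p = 0.00543, limma's adjusted p = 0.182) and Asprv1 0.10 (SE 0.05, unadjusted p = 0.0515, limma's adjusted p = 0.356). Casp14 was the 1 gene of 13 higher in ICI at an unadjusted p under 0.05 (4.21% of all), and Cnfn and Ivl were the 2 lower ones (9.98%). After adjustment 0 of 13 passed (0.00824% of all). The value of Casp14 moved the other way, to 0.15, without Scop replicate 1 (limma's unadjusted p = 0.382) and without Scop replicate 2 (0.388).

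Dmkn, Sbsn and Krtdap stand in a row on chromosome 7 and encode dermokine, suprabasin and keratinocyte differentiation-associated protein, secreted proteins of the suprabasal layers. Sbsn was at 1.07, 1.28, 0.972 and 1.12 FPKM in ICI replicates 1 to 4 and at 0.851, 0.990, 1.43 and 1.06 in Scop replicates 1 to 4 (log2 fold change 0.03, SE 0.10). Its FPKM steps imply a gene length of 8606 bases, against 3625 bases of exons in GENCODE M21, and it shares exonic bases there with Tmem147os, so its level per length is uncertain. Dmkn was at 0.833, 0.735, 0.669 and 0.773 FPKM in ICI and 0.519, 0.857, 2.68 and 1.19 in Scop replicates 1 to 4. It was even in ICI and spread in Scop, with a log2 fold change of -0.32 (SE 0.22), and -0.07 (SE 0.12) without Scop replicate 3.

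Over the tested genes, the highest values gathered most in 1 library. Scop replicate 3 was the highest library for 9 of 14 tested genes, against 15.0% of all genes tested. Relative to the median of the other 7 libraries it stood 4.57-fold for Sprr1a, 3.47-fold for Dmkn, 3.0-fold for Lce3b, 2.73-fold for Cnfn, 1.66-fold for Tgm1, 1.46-fold for Tgm5, 1.35-fold for Sbsn, 1.33-fold for Casp14 and 1.10-fold for Evpl. The other highest libraries were ICI replicate 1 (4 of 14, against 11.8% of all genes tested) and Scop replicate 4 (1 gene, Ivl, against 7.42%). The coefficient of variation was larger in Scop than in ICI for 12 of 14 genes, against 56.0% of all genes tested, and without Scop replicate 3 for 8 of 14, against 40.6%. Ivl differed from Sprr1a and Cnfn in this respect, since Scop replicate 3 was not its highest library.

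**Figure D4:**
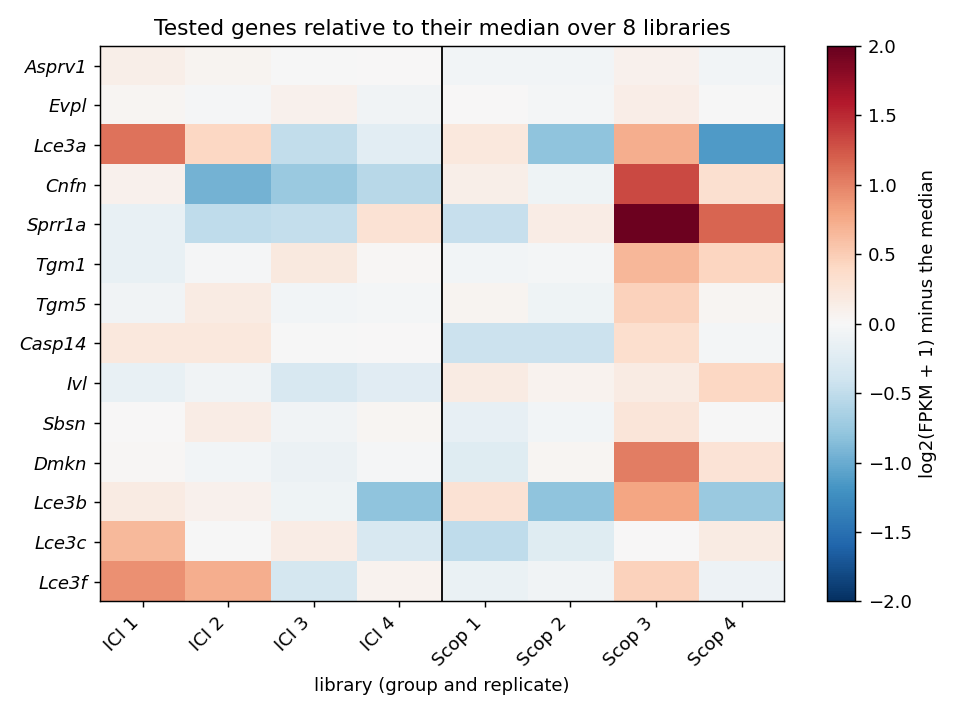
Difference of log2(FPKM + 1) from the gene's median over the 8 libraries (colour) for the 14 tested genes (rows) in each library (columns, ICI left of the line and Scop right of it). The column of Scop replicate 3 is red for most rows, deepest for Sprr1a and Cnfn, while the Lce3 rows vary within both groups.

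Markers of other tissue layers moved with that library. In Scop replicate 3, where Sprr1a and Cnfn were highest, the stromal markers were at 692 FPKM in sum, as given above. Krt16, a keratin of activated squamous cells, was at 77.1 FPKM there and at 46.7 in Scop replicate 4, against 4.37 to 14.4 in the other 6. Conjunctival markers, mostly Krt13 and Krt4, summed to 1942 FPKM in Scop replicate 3 against 1258 to 1319 in ICI and 1177 to 1341 in the other Scop libraries. Of their goblet cell members, Muc5ac and Muc5b could not be read here. Tff1 and Spdef stayed at or below 0.238 and 0.0508 FPKM in all libraries, and Agr2 was at 6.98 FPKM in Scop replicate 3 and 3.02 to 6.12 elsewhere. Epidermal markers summed to 33.6 FPKM there against 23.3 to 28.2 elsewhere, with 4 of 7 at their highest. Of all genes tested, 15.0% were highest in that library. Cdsn, the corneodesmosin gene, was among the 4 (6.51 FPKM against at most 3.68). Krt1 (1.73 FPKM against 1.71 to 2.68), Dsc1 and Krt2 were not at their highest. Hair follicle and meibomian gland markers summed to 2.99 FPKM against 1.64 to 2.48, with 5 of 9 at their highest. Only 1 of these 9, Soat1, had a mean of at least 0.5 FPKM, and most of the sum was its own. Soat1 was at 2.15 FPKM in Scop replicate 3 and 1.30 to 2.08 elsewhere. Corneal epithelial markers summed to 42214 FPKM against 37197 to 39831, with 4 of 9 at their highest. The part of tissue makeup in the values of the envelope genes was not tested.

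**Figure D5:**
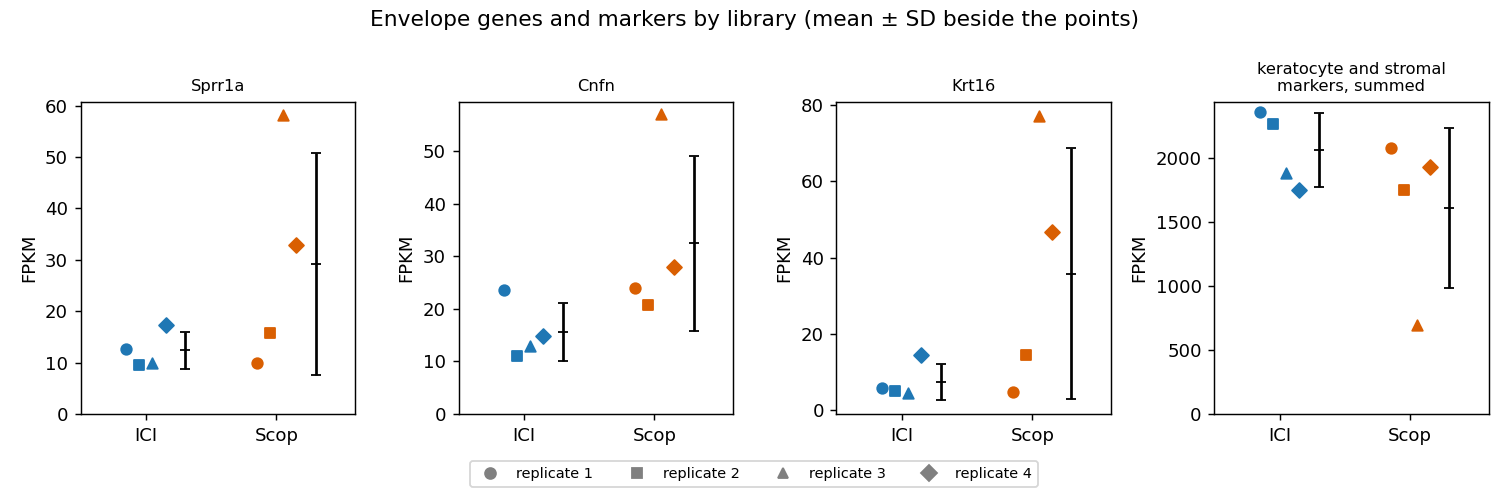
FPKM in each library (symbols for replicate numbers) of Sprr1a, Cnfn and Krt16 and of the sum of 10 keratocyte and stromal markers, with mean ± SD of each group (n = 4) beside the points. Scop replicate 3 is the highest library in the first 3 panels (58.2, 57.0 and 77.1) and the lowest in the last (692).

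Other genes of squamous differentiation were read from lists of related function, and limma called 0 of their members after adjustment. Of 17 tested further envelope and plaque proteins, 0 were lower and 1 was higher in ICI at an unadjusted p under 0.05, where 7.46% and 4.56% of all genes tested were lower and higher. That gene was Csta1, of the cystatin A family of envelope-associated protease inhibitors, at 51.7 ± 7.18 against 41.7 ± 1.64 FPKM (log2 fold change 0.30, SE 0.08). It did not overlap between the groups, where 2.63% of all genes tested lay higher without overlap. Dsc2, a desmosomal cadherin gene (258 ± 5.12 against 280 ± 17.8 FPKM), and Pkp1, of the desmosomal plaque protein plakophilin 1 (216 ± 14.9 against 242 ± 24.8), came next by p. The list's median was -0.05.

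Of 13 further crosslinking and processing enzymes, 3 were lower (7.46% of all genes) and 0 higher (4.56%) at that threshold (median -0.09). Ctsc, of the dipeptidyl peptidase cathepsin C, was at 13.6 ± 1.52 against 17.6 ± 0.911 FPKM, and St14, of matriptase, which starts a protease cascade in keratinocytes, at 29.7 ± 1.47 against 34.6 ± 2.93. Padi1, of a deiminase that converts arginines of keratins and filaggrin to citrulline, was at 0.454 ± 0.0245 against 0.772 ± 0.320 FPKM. None of these 3 overlapped between the groups (4.36% of all genes tested lay lower without overlap), though they were picked by p. Padi1 was at most 0.480 FPKM in ICI and at least 0.492 in Scop. Without Scop replicate 3 it had an unadjusted p of 0.123 in limma. Of 10 inhibitors of these proteases 0 were lower (7.46%) and 0 higher (4.56%; median 0.00). The smallest p were those of Cst6 (4.88 ± 0.209 against 5.48 ± 0.864 FPKM), Serpinb8 (26.4 ± 2.03 against 25.0 ± 0.683) and Slpi (7.24 ± 0.516 against 6.39 ± 2.25). The log2 fold change of Slpi was 0.21, and 0.01 without Scop replicate 3.

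Of 18 barrier lipid genes, 1 was lower (7.46% of all genes) and 2 were higher in ICI (4.56%; median -0.03). The lower gene was Alox12e, an epidermal-type lipoxygenase (9.90 ± 2.96 against 17.8 ± 4.55 FPKM), which overlapped between the groups. The higher genes were Smpd1, of acid sphingomyelinase (16.5 ± 0.811 against 14.9 ± 0.721), and Lipm, a lipase of differentiating keratinocytes (26.1 ± 2.23 against 23.5 ± 0.876). Without Scop replicate 3 their unadjusted p in limma was 0.0803 and 0.0706. Of 10 keratins of cornifying or stressed epithelium, 3 were lower (7.46% of all genes) and 0 higher (4.56%; median -0.07). These were Krt17 (10.3 ± 3.20 against 20.6 ± 8.86 FPKM), Krt4 (150 ± 13.4 against 194 ± 44.7) and Krt16 (7.39 ± 4.71 against 35.7 ± 32.9). Krt4 was also read above as a conjunctival marker, so it is not particular to cornifying or stressed epithelium. All 3 had their highest value in Scop replicate 3, without which Krt16 had an unadjusted p of 0.107 in limma.

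Of 37 transcription factors of squamous differentiation, 6 were lower (7.46% of all genes) and 4 higher (4.56%) in ICI at an unadjusted p under 0.05 (median -0.03). Those with the smallest p were all higher in ICI. Tfap2c, of the AP-2γ factor of surface ectoderm, was at 17.9, 18.4, 17.9 and 18.0 FPKM in ICI replicates 1 to 4 and at 15.2, 15.3, 15.1 and 16.2 in Scop replicates 1 to 4 (log2 fold change 0.21, SE 0.05, unadjusted p = 0.00123, limma's adjusted p = 0.181). Hes1, a Notch-induced repressor gene, was at 85.5 ± 16.3 against 58.9 ± 6.25 FPKM. Ovol1, of a zinc finger factor that drives epidermal cells out of the cycle, was at 23.5 ± 4.04 against 16.0 ± 2.60 FPKM. Tfap2c did not overlap between the groups (2.63% of all genes tested lay higher without overlap), while Hes1 and Ovol1 did, each through ICI replicate 4. Without Scop replicate 3 3 factors were lower (9.98% of all genes then tested) and 5 higher (4.21%). In the same fit, beside the same shares of all genes, 0 further envelope and plaque proteins were lower and 3 higher in ICI. Lower and higher genes numbered 2 and 0 for the enzymes, 0 and 1 for the inhibitors, 1 and 0 for the barrier lipid genes and 2 and 0 for the keratins. The numbers tested per list are given above for all 8 libraries only.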

How the data were processed

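The authors deposited FPKM for 8 samples in 1 table. The submitters' processing notes name HISAT2, HTSeq, fastp and the build mm10; versions, annotation and strandedness: not given in the sources used here. RNA was isolated with a Qiagen RNeasy kit, made into libraries with a Vazyme kit and sequenced on a NovaSeq, per the labels' protocols. Columns were matched to samples by title. The genes and lists were chosen with earlier results of these data known. Every gene with a mean of at least 0.5 FPKM (12100, of which 14 of the 32 described) was tested with limma 3.58.1 in R 4.3.3 (eBayes with trend, two-sided, Benjamini-Hochberg adjustment) on log2(FPKM + 1). The test was also tried on simulated data with the same spread for all genes and no outlying library, unlike these data. No result here rests on that trial. The deposited values are FPKM, so the main test was on their log scale, and limma-voom on recovered fragments was an alternative. Whole fragments were recovered for 99.8% of genes from ratios between libraries (relative tolerance 5e-13, whole within 0.01), which could be too low by a common factor. Of other lists the 3 genes with the smallest p are named. Genes above 0.1 FPKM in any library are named with values among those not tested. The lowest chi-square per degree of freedom between libraries was 13.1, so none matched another within counting error. Libraries made separately from the same RNA would not be found this way. Alternatives were other pseudocounts, no filter, scalings, robust eBayes, a replicate block and leaving out each library. Intervals and floors cover counting error only. RefSeq sequences and coordinates are of GRCm38.p6, the same build. No promoter of Evpl was listed.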

Additional observations from a re-analysis of the deposited data

Results flagged for a closer look

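Of 28 groups of 4 values (14 tested genes in ICI and Scop), 3 held a value far from the other 3. For normal values and independent groups, chance gives about 1 in 20. The groups share libraries and some rest on few fragments, so that rate is only a guide. Asprv1 was at 2745 FPKM in Scop replicate 3, against 2487 to 2496 in the other Scop libraries. Lce3f was at 0.748 FPKM in Scop replicate 3, against 0.161 to 0.205. Tgm5 was at 15.4 FPKM in ICI replicate 2, against 13.0 to 13.3.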

How the results depend on the processing

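No gene of the 32 passed at an adjusted p under 0.05 under any of the 16 alternatives in which it was tested. With unadjusted p-values under 0.05, genes lower in ICI numbered 2 of 14 in the fit as reported (903 of all 12100 genes tested). With the replicate block they numbered 4 of 14 (Sprr1a and Tgm1 in addition), beside 869 of 12100. With 1 library left out they numbered 2 to 4. The 4 of 14 came without Scop replicate 1 (Dmkn and Sprr1a in addition), beside 730 of 12079. Genes higher in ICI numbered 0 of 14 as reported (552 of 12100) and 1 of 32 with no filter (Lce3e, 0.502 FPKM at most), beside 862 of 22776. With 1 library left out they numbered 0 to 1. Lce3f was the 1 of 14 without ICI replicate 3 (444 of 12096), and Casp14 the 1 of 13 without Scop replicate 3 (511 of 12137). The labels do not say that a replicate number pairs samples; same-numbered deviations from the group means had correlations of 0.29, -0.01, 0.14 and 0.08 across genes for numbers 1 to 4, and ICI replicates 1 and 3, but not 2 and 4, correlated best with their own number. The median log2 fold change of -0.03 ran from -0.13 to 0.03 with 1 library left out and was 0.02 with a pseudocount of 0.1 and 0.03 by limma-voom on recovered fragments. The sign changed for 4 genes, Asprv1 (-0.05 after quantile normalisation), Sbsn (-0.01 after quantile normalisation, -0.03 to 0.10 with 1 library left out), Evpl (-0.04 to 0.03 with 1 library left out) and Lce3b (0.18 with a pseudocount of 0.1, 0.34 by limma-voom, -0.28 to 0.25 with 1 library left out). The cause was not tested. Ivl and Cnfn kept their sign throughout (-0.48 to -0.22 and -1.16 to -0.65), with limma's adjusted p of 0.165 to 0.389 and 0.222 to 0.536. Lce3f had no value without ICI replicate 1, ICI replicate 2 or Scop replicate 3, nor Lce3c without ICI replicate 1, because the mean fell under 0.5 FPKM. Depth limits the 18 untested genes and Lce3b, Lce3c and Lce3f, with at most 42 fragments in a library.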
